A study of Mus musculus with 39 samples.

Results

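The data described here are 6 bulk RNA-seq libraries out of 39, made from F4/80-intermediate cells that were flow-sorted from the ankle joints of control mice. They fall into the populations that the labels call FI1 and FI3, with 3 libraries each, and the members are the samples whose labels name a control animal and one of these populations. The animals were of the C57BL/6 strain, aged 21 to 37 weeks, with the genotype written Flipflox/floxCD11c+, that is, both copies of Cflar (which encodes FLIP) carried loxP sites and the CD11c-driven Cre recombinase was not listed. The counterpart libraries used further below, 3 of FI1 and 3 of FI3, came from HUPO mice of the same age range, labelled Flipflox/floxCD11ccre, which delete Cflar in cells that express CD11c (Itgax) and had established arthritis. Both arms carried the floxed alleles, and they differed in Cre and in disease together, so genotype and arthritis cannot be told apart between them. Each library was made from more than 400 sorted cells, and the surface markers that divide FI1 from FI3 are not given in the sources used here, so a gene behind such a marker could be among those that differ. The libraries are called here by their population and the number in their title, as FI1_1167, FI1_1194, FI1_1392, FI3_1085, FI3_1167 and FI3_1470x4. The labels do not say whether each library came from its own animal or from a pool, so the p-values measure the spread between libraries only. That spread was estimated over all 39 libraries in 13 groups, not from these 6 alone. Per the series' design text, low-quality samples and, in some control groups, the least correlated sample had been removed before deposit, which lowers the spread within groups.

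Joint tissue holds macrophages that live there for long periods and cells that derive from blood monocytes. Classical monocytes of the mouse carry Ly6C and lose it as they mature in tissue, where some gain MHC class II molecules and features of dendritic cells. MHC class II molecules present peptides from ingested proteins to CD4 T cells. Their genes are switched on together by the coactivator CIITA, which is recruited to the X and Y boxes found in their promoters. F4/80, encoded by Emr1, is a surface receptor of mouse macrophages and monocytes.

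Total counts ranged from 3132775 to 7587496 per FI1 library and from 4618724 to 7403555 per FI3 library. Values below are CPM, which are counts relative to library totals adjusted by the trimmed mean of M-values, and a count of 3 over a whole group corresponded to 0.174 CPM in FI1 and 0.161 CPM in FI3; a gene called absent had no counts in any library of the group. Across genes, the correlation of log2 levels between libraries was 0.627 to 0.667 within FI1, 0.658 to 0.703 within FI3 and 0.560 to 0.634 between them; genes are not independent replicates. The label "F4/80 intermediate" was checked against Emr1, which was at 231, 451 and 386 CPM in FI1 and at 358, 479 and 841 CPM in FI3, against a mean of 1283 ± 158 CPM (SD, n = 3) in the F4/80-high population FH1. Emr1 did not pass the test between FI1 and FI3 (adjusted p = 0.416 in edgeR's quasi-likelihood test with Benjamini-Hochberg adjustment). Cflar was at 30.3, 111 and 60.5 CPM in FI1 and at 236, 54.6 and 33.0 CPM in FI3 (adjusted p = 0.82), so it was detected in all 6 control libraries. Transcripts of sex-linked genes divided the libraries unevenly: all 3 FI1 libraries and FI3_1167 carried Xist, while FI3_1085 and FI3_1470x4 carried Y-linked transcripts instead.

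Of 12450 genes tested, 241 (1.94%) differed between control FI3 and control FI1 at an adjusted p under 0.05, and 1755 did so at an unadjusted p under 0.05. FI3 was higher for 116 genes (0.932%) and lower for 125 genes (1.00%). These shares are the comparison for each count of called list genes below. Many of these contrasts were between presence and absence: 29 of the genes higher in FI3 had no counts in any FI1 library, and 40 of the genes lower in FI3 had none in any FI3 library. The median log2 difference over all tested genes was 0, and the 3 FI3 libraries were all above the 3 FI1 libraries for 7.90% of tested genes (984) and all below them for 6.86% (854). Genes of MHC class II presentation and of the negative feedback of NF-kB signalling were among those higher in FI3, and genes of classical monocytes and of neutrophil granules among those lower in FI3.

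**Figure D1:**
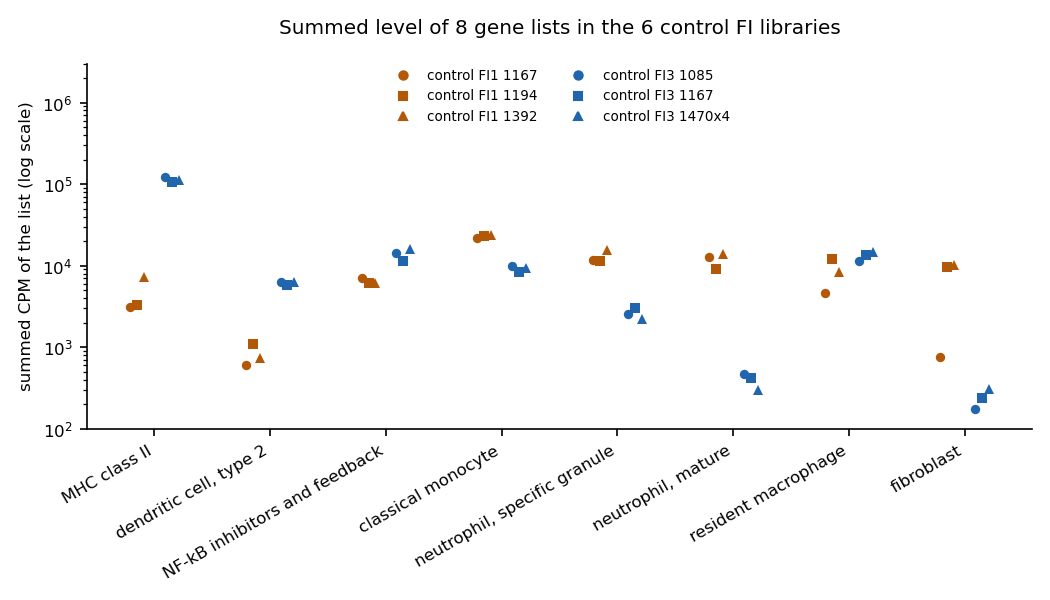
Summed CPM (y axis, log scale) of 8 gene lists (x axis) in each of the 6 control libraries, FI1 in orange and FI3 in blue, 1 marker shape per library. The MHC class II sum lies between 3146 and 7263 CPM in FI1 and between 106786 and 122940 CPM in FI3, and the mature neutrophil sum runs the other way; the fibroblast sum is high in FI1_1194 and FI1_1392 and lower in FI1_1167.

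MHC class II genes were far higher in FI3 than in FI1. Of the 18 genes on the list, all tested, 8 rose in FI3 and 0 fell, where 0.932% of tested genes rose; the median fitted log2 difference was 4.89, and 4.54 with genes absent from FI1 set at their lower bound. Summed over the list, the level was 3146, 3343 and 7263 CPM in FI1 and 122940, 106786 and 111133 CPM in FI3, so the groups did not overlap and the FI3 libraries lay close to each other. In bulk samples such as these, a change in the share of cells that carry a transcript and a change in the amount per cell cannot be told apart.

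The promoters of 5 of the 8 risen genes were found in the RefSeq promoter table (GRCm38.p6), and those of 4 genes are printed. These 4 hold the core of a Y box, and in H2-Eb1 and H2-DMb1 that of an X box too. The promoters of H2-DMa are described below but not printed. The 250 bases before the annotated start are given 5′ to 3′ on the gene's strand, with the Y box core (GATTGG on either strand, so CCAATC as well) and the core of the X box (AGNAAC) in capitals. H2-Aa lies at chr17:34287824-34288073 (minus strand), H2-Eb1 at chr17:34305617-34305866, H2-DMb1 at chr17:34152941-34153190 and H2-DMb2 at chr17:34144999-34145248 (plus strand).
H2-Aa: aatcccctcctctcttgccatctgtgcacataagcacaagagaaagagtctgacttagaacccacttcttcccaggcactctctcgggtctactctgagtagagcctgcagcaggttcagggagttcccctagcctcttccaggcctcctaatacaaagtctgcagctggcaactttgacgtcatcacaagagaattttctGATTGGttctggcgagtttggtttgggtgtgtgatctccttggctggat
H2-Eb1: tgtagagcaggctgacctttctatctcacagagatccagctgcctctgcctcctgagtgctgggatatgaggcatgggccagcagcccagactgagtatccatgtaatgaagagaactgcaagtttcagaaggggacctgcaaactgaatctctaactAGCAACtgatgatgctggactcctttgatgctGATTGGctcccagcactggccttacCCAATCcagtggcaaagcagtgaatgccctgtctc
H2-DMb1: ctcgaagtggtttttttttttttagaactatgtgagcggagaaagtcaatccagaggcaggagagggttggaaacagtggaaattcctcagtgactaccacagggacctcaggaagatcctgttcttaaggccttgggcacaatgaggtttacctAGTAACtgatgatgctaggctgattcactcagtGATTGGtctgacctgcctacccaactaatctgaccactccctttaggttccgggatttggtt
H2-DMb2: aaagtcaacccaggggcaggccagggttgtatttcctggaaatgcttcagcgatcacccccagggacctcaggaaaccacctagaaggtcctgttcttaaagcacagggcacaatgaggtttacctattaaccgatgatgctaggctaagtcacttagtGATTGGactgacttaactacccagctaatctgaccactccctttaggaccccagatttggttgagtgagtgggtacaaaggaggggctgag
The Y box core began 49 bases before the start in H2-Aa, 60 and 35 bases before it in H2-Eb1, 62 bases in H2-DMb1 and 91 bases in H2-DMb2. An X box core preceded the Y box core in H2-Eb1, at 92 bases, and in H2-DMb1, at 95 bases. Other forms of the X box were not searched, so promoters without this match may still hold one. H2-DMa has 2 promoters in the table, of which 1 held a Y box core, 199 bases before the start, and 1 held neither motif. Over all 32851 promoters of this length, 14.6% held the Y box core, 42.3% the X box core on either strand and 5.98% both, so a match describes the sequence and is not by itself a site. The promoters of Cd74, H2-Ab1 and Ciita were not used here.

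Cd74, the invariant chain that accompanies MHC class II molecules to the peptide-loading compartment, was at 407, 657 and 1918 CPM in FI1 and at 63655, 52808 and 58879 CPM in FI3. The log2 difference was 5.88 ± 0.47 (SE; adjusted p = 1.6e-09). H2-Ab1, the beta chain of the classical molecule I-A, was at 91.0, 57.9 and 729 CPM in FI1 and at 25468, 21806 and 21553 CPM in FI3, a log2 difference of 6.29 ± 0.70 (adjusted p = 1.03e-06). Within FI1_1392 was the highest for both genes and was still far below every FI3 library. H2-Eb1, the I-E beta chain, whose promoter holds both cores searched, was at 48.8, 51.3 and 205 CPM in FI1 and at 12758, 10542 and 10120.1 CPM in FI3, a log2 difference of 6.77 ± 0.65 (adjusted p = 5e-08). H2-Aa, the I-A alpha chain, was at 53.8, 117 and 468 CPM in FI1 and at 15517, 14246 and 14569 CPM in FI3, a log2 difference of 6.12 ± 0.87 (adjusted p = 5.63e-05).

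The genes of H2-DM, the chaperone that exchanges the invariant chain fragment for peptide, rose as well. H2-DMa was at 154, 64.2 and 226 CPM in FI1 and at 1032, 1362 and 1049 CPM in FI3, a log2 difference of 2.95 ± 0.36 (adjusted p = 1.63e-06). H2-DMb1 was at 74.5, 36.0 and 119 CPM in FI1 and at 1125, 1337 and 969 CPM in FI3, a log2 difference of 3.90 ± 0.41 (adjusted p = 1.53e-07). The similar H2-DMb2 was nearly absent from FI1, at 0.238, 0 and 0 CPM, and was at 81.2, 132 and 85.8 CPM in FI3; reads from these near-identical copies may have been assigned to either. Ciita, the coactivator itself, had no counts in FI1 and was at 42.2, 68.5 and 120.4 CPM in FI3, at least 442-fold higher (adjusted p = 0.00236; bounds are set here from 3 counts over the group at 0). Each of these 8 genes kept its call when any single library was left out.

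Not every step of the pathway passed the test. Ctss, the protease that trims the invariant chain, was at 1816, 1673 and 3012 CPM in FI1 and at 2412, 3290.1 and 2981 CPM in FI3 (adjusted p = 0.299). The chaperone gene H2-Ob was absent from FI1 and at 29.1, 26.0 and 20.7 CPM in FI3 (adjusted p = 0.203). The X box binding factors Rfx5, Rfxank and Rfxap, the thiol reductase gene Ifi30, the protease gene Lgmn and March1, which encodes a ubiquitin ligase for MHC class II molecules, were also not called.

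**Figure D2:**
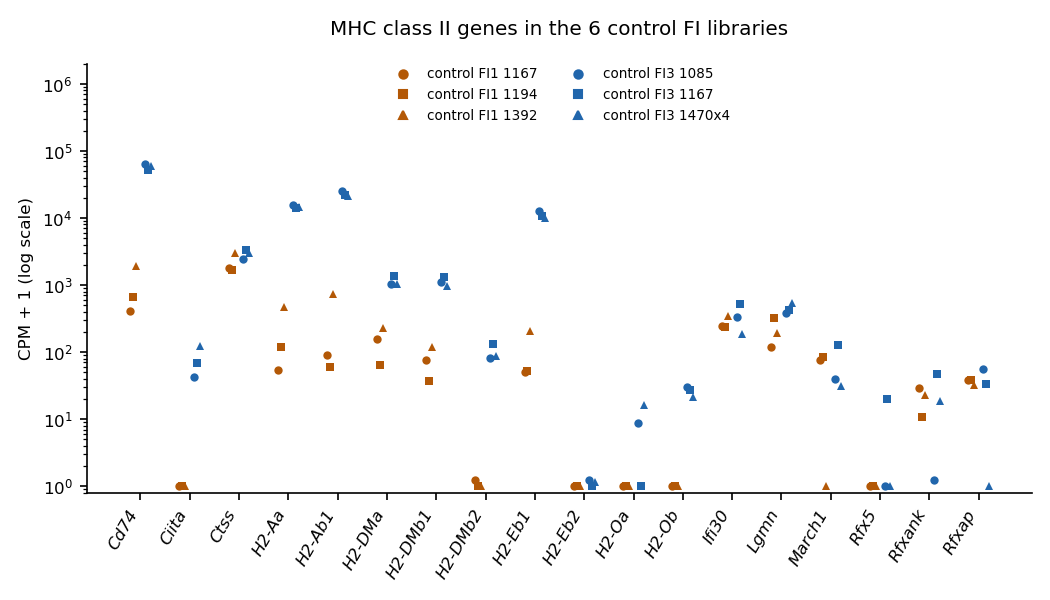
CPM + 1 (y axis, log scale) of MHC class II genes (x axis) in each control library, FI1 in orange and FI3 in blue, 1 marker shape per library. For Cd74 the FI1 points lie between 407 and 1918 CPM and the FI3 points between 52808 and 63655 CPM; Ciita sits at the bottom of the axis in FI1.

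The other control populations place these values. Cd74 averaged 6268 ± 841 CPM in classical monocytes (CM), 6385 ± 3417 CPM in non-classical monocytes (NCM), 52.1 ± 9.1 CPM in FH1 and 33121 ± 11778 CPM in FH2 (SD, n = 3 each), against 994 ± 810 CPM in FI1 and 58448 ± 5436 CPM in FI3. Among these 6 control means FI3 was the highest, FH2 the next and FH1 the lowest. H2-Eb1 had the same order at its ends, with 11139.8 ± 1417 CPM in FI3, 6335 ± 2885 CPM in FH2 and 7.10 ± 1.38 CPM in FH1. CM and NCM did not separate beyond their spread for either gene.

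Dendritic cell lists differed from each other. The summed level of the mature list was 1174 to 1928 CPM in FI1 and 5621 to 7513 CPM in FI3, and that of the type 2 list was also higher in all 3 FI3 libraries, while the sums of the shared list (2447 to 4046 CPM in FI1, 2673 to 3562 CPM in FI3) and of the type 1 list (184 to 514 CPM in FI1, 356 to 669 CPM in FI3) overlapped. Of 12 tested genes of mature dendritic cells 1 rose, Ccl17, a chemokine ligand of CCR4. In edgeR 7 of the 12 were at an unadjusted p under 0.05, and 3 passed in DESeq2. All FI3 libraries were above all FI1 libraries in 7 of the 12, against 7.90% of all tested genes. Ccl17 had no counts in FI1 and was at 359, 2266 and 469 CPM in FI3, at least 5917-fold higher (adjusted p = 0.012); without FI1_1167 or FI1_1392 the adjusted p was 0.0521 or 0.0578. Ccl22, the other CCR4 ligand, was likewise absent from FI1 and at 226, 847 and 279 CPM in FI3, with an adjusted p of 0.0638. FI3_1167 was the highest for both.

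Of 10 genes of type 2 dendritic cells 0 passed edgeR's test, 4 were at an unadjusted p under 0.05 and 2 passed in DESeq2. In 8 of the 10 genes all FI3 libraries were nevertheless above all FI1 libraries, against 7.90% of all tested genes, and the summed level was 603, 1094 and 733 CPM in FI1 and 6249, 5720 and 6336 CPM in FI3. Mgl2, a lectin gene of this dendritic cell type, was at 0.119, 34.6 and 15.6 CPM in FI1 and at 2653, 2567 and 2364 CPM in FI3 (adjusted p = 0.0936). Cd209a, the gene of a DC-SIGN homologue, was at 14.1, 76.9 and 59.0 CPM in FI1 and at 1475, 1185 and 1738 CPM in FI3 (adjusted p = 0.213). Zbtb46, a transcription factor gene of conventional dendritic cells, was at 0, 0 and 0.752 CPM in FI1 and at 104, 61.0 and 144 CPM in FI3 (adjusted p = 0.387). Itgax, which encodes CD11c, was at 1.54, 35.1 and 52.6 CPM in FI1 and at 177, 295 and 188 CPM in FI3 (adjusted p = 0.354). The groups did not overlap for any of these genes. Zbtb46 and Itgax are on the shared list, in which 8 of 12 tested genes had a positive log2 difference and 3 a negative one. Others went the other way by mean level, with overlap and no call. Cytip of the shared list averaged 1625 CPM in FI1 and 994 CPM in FI3. Irf8 of the type 1 list averaged 142 CPM in FI1 and 54.4 CPM in FI3.

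Lists of shared dendritic cell genes (12 tested) and of type 1 dendritic cell genes (9 tested) also had 0 genes called by edgeR, with 2 and 3 at an unadjusted p under 0.05 and 0 and 2 called by DESeq2. Of 12 interleukin-4 induced genes 1 rose, Ccl17 again, and 1 fell, Chi3l3, where 0.932% of tested genes rose and 1.00% fell. DESeq2 called 5 of the 12, of which 4 were higher in FI3. In 8 of the 12 all FI3 libraries were above all FI1 libraries, against 7.90% of all tested genes. The summed level was 2559, 2604 and 2426 CPM in FI1 and 8250, 14442 and 9964 CPM in FI3. It was 2263 to 3057 CPM in control FH1 and, above FI3, 23754 to 36179 CPM in control FH2. Retnla, the gene of a secreted resistin-like protein, was at 40.8, 525 and 231 CPM in FI1 and at 3529, 7116 and 5212 CPM in FI3 (adjusted p = 0.0937). Of 11 genes of costimulation and T cell contact, 1 rose. This was Icam1, the ligand of LFA-1 on T cells, at 73.4, 24.5 and 33.3 CPM in FI1 and at 1682, 936 and 502 CPM in FI3, a log2 difference of 4.57 ± 0.59 (adjusted p = 5.62e-06). Icam1 spread widely within FI3, and its lowest FI3 library was still above every FI1 library.

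Of 15 genes on the list of NF-kB inhibitors and feedback, which also holds regulators of other pathways, 5 rose and 0 fell, where 0.932% of tested genes rose. Their median log2 difference was 1.18, and 1 rose in a fit to the 6 libraries alone. Dusp1, a phosphatase that switches off MAP kinases, was at 2587, 2285 and 1624 CPM in FI1 and at 5525, 4402 and 6264 CPM in FI3, a log2 difference of 1.32 ± 0.20 (adjusted p = 6.26e-05). Tnfaip3, which encodes the ubiquitin-editing enzyme A20, was at 122, 96.5 and 194 CPM in FI1 and at 795, 545 and 1080.1 CPM in FI3, a log2 difference of 2.55 ± 0.53 (adjusted p = 0.00511). Both kept their call without any single library, and the groups did not overlap.

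Nfkbia, which encodes the inhibitor IkB-alpha and is itself an NF-kB target, was at 664, 756 and 1813 CPM in FI1 and at 2365, 2288 and 2657 CPM in FI3, a log2 difference of 1.18 ± 0.25 (adjusted p = 0.0071). Its call rested on the FI1 libraries, with an adjusted p of 0.0662 without FI1_1167 and 0.0672 without FI1_1194. Its promoter is shown because it was the 1 among those of Nfkbia, Dusp1, Socs3 and Tnfaip3 that held the NF-kB motif searched. The motif was GGGA and TTCC with any 2 bases between them, on either strand, in capitals, and 1.21% of all promoters hold it. Other forms were not searched, so promoters without this match may still hold an NF-kB site. In Nfkbia the match lay 29 bases before the start, in the promoter at chr12:55492648-55492897 (minus strand).
Nfkbia: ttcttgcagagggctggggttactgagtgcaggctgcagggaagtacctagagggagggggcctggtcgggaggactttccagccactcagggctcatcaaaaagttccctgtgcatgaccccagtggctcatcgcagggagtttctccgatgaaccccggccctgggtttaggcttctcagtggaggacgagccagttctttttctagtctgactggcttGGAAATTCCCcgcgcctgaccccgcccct
Socs3, an inhibitor of cytokine receptor signalling, was at 304, 306 and 231 CPM in FI1 and at 974, 518 and 1133 CPM in FI3, a log2 difference of 1.64 ± 0.36 (adjusted p = 0.00861; 0.0619 without FI1_1392 and 0.0692 without FI3_1470x4). Nfkbiz, the gene of the nuclear protein IkB-zeta, had a log2 difference of 2.01 ± 0.47 (adjusted p = 0.0156; 0.0779 without FI1_1194, 0.0619 without FI1_1392 and 0.0976 without FI3_1085). Of the 5 NF-kB subunit genes 0 were called by edgeR, 1 was at an unadjusted p under 0.05 and 0 were called by DESeq2.

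Of 22 immediate early genes, which respond within minutes to stimulation and to tissue handling, 3 rose and 0 fell, where 0.932% of tested genes rose. Jund, a member of the AP-1 family, was at 337, 514 and 471 CPM in FI1 and at 1811, 1334 and 2216 CPM in FI3, a log2 difference of 2.02 ± 0.24 (adjusted p = 1.54e-06). Klf2, a transcription factor gene of quiescent leukocytes, was at 107, 99.1 and 330.2 CPM in FI1 and at 668, 533 and 707 CPM in FI3, a log2 difference of 1.83 ± 0.36 (adjusted p = 0.00263). The third, Klf6, had an adjusted p of 0.0436 and lost its call without FI1_1167 (0.223), FI1_1194 (0.0972), FI3_1085 (0.178), FI3_1167 (0.0563) or FI3_1470x4 (0.0888). Whether the isolation of the cells took part in these values was not tested. Among 30 inflammatory cytokine and chemokine genes edgeR called 0, with 3 at an unadjusted p under 0.05 and 2 called by DESeq2.

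Further genes rose in FI3. Cst3, which encodes the cathepsin inhibitor cystatin C, was at 1622, 1364 and 2194 CPM in FI1 and at 4212, 3507 and 4507 CPM in FI3, a log2 difference of 1.24 ± 0.17 (adjusted p = 1.2e-05), and was the only 1 of 13 cathepsin and cystatin genes that passed. Fcgr2b, the inhibitory Fc gamma receptor, was at 187, 325 and 245 CPM in FI1 and at 593, 907 and 689.5 CPM in FI3, a log2 difference of 1.53 ± 0.30 (adjusted p = 0.00246). Cd9, a tetraspanin, was at 201, 499 and 241 CPM in FI1 and at 1077, 1631 and 1702 CPM in FI3, a log2 difference of 2.23 ± 0.36 (adjusted p = 0.000216). Itgb1, the beta 1 integrin chain, was at 243, 202 and 363 CPM in FI1 and at 1230.2, 559.6 and 1094 CPM in FI3, a log2 difference of 1.84 ± 0.31 (adjusted p = 0.000287). These 4 genes did not overlap between the groups and kept their call without any single library.

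The MHC class I list had 3 of 13 tested genes higher, against 0.932% of all tested genes. All 3 act in folding and loading in the endoplasmic reticulum. Calr, calreticulin, was at 239.8, 295 and 118 CPM in FI1 and at 728, 712 and 558 CPM in FI3, a log2 difference of 1.61 ± 0.24 (adjusted p = 6.23e-05). Canx, calnexin, had a log2 difference of 0.91 (adjusted p = 0.015; 0.076 without FI1_1167, 0.0515 without FI1_1392 and 0.118 without FI3_1470x4). Pdia3, a disulfide isomerase of the peptide-loading complex, had a log2 difference of 0.97 (adjusted p = 0.0391; 0.135 without FI1_1194, 0.275 without FI1_1392, 0.212 without FI3_1085 and 0.0879 without FI3_1470x4).

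Apart from Ccl17, Ciita and H2-DMb2, the 12 genes with the largest increase held 9 genes with no counts in FI1. Klrb1b, a lectin-like receptor gene of the natural killer receptor family, was at 224, 254 and 314 CPM in FI3, at least 1517-fold higher (adjusted p = 0.00993). Ank, a pyrophosphate transport gene, was at 124, 334 and 169 CPM, at least 1200.1-fold higher (adjusted p = 0.00757), and the pseudogene Hmga2-ps1 was at 36.0, 135 and 52.1 CPM (adjusted p = 0.00502). These 3 kept their call without any single library. Mucl1 was at 276, 311 and 268 CPM (adjusted p = 0.0117) and had an adjusted p of 0.0536 without FI3_1167, 0.0551 with a term for sex-linked transcripts and 0.346 in DESeq2. Pld2, a phospholipase D gene, had an adjusted p of 0.0216, and of 0.0824, 0.0729 and 0.0936 without FI1_1167, FI1_1194 and FI1_1392. Slc27a3, Dcstamp, Rarb and 9830001H06Rik, with adjusted p of 0.0382, 0.0484, 0.0495 and 0.0421, lost their call without any 1 of the 6 libraries, with adjusted p from 0.0861 to 0.11, 0.0714 to 0.157, 0.0659 to 0.173 and 0.0593 to 0.159. Slc27a3 had an adjusted p of 0.370 in DESeq2; it and Mucl1 were the 2 of the 241 called genes that DESeq2 did not call.

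**Figure D3:**
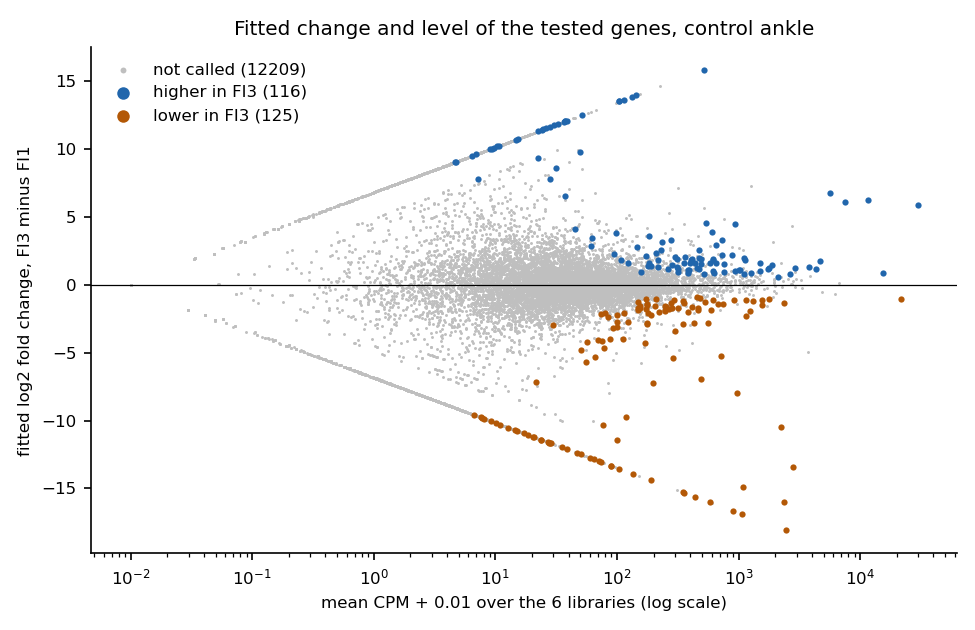
Each point is 1 of the 12450 tested genes, by its mean level (x axis, CPM + 0.01 over the 6 libraries, log scale) and its fitted log2 difference, FI3 minus FI1 (y axis). Genes called higher (116, blue) and lower (125, orange) stand out, and the straight diagonal edges are genes with no counts in 1 group, whose fitted value is set by the level in the other.

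Classical monocyte genes were lower in FI3. Of 20 genes tested 10 fell and 0 rose, where 1.00% of tested genes fell; the median log2 difference was -5.41. The summed level was 21582, 22881 and 23883 CPM in FI1 and 9975, 8409 and 9412 CPM in FI3. In the other control populations it was 11116 to 13519 CPM in CM, 10249 to 11586 CPM in FH1 and 10802 to 12485 CPM in FH2. NCM had 3343 to 4106 CPM. In FI3 6 of the 20 genes had no counts, so the FI3 sum came from the other members. Ly6c2, the gene of the surface antigen Ly6C (chromosome 15, 75108158 to 75111970, GRCm38), was at 2623, 1231.3 and 1511 CPM in FI1 and had no counts in any FI3 library, at least 11076-fold lower (adjusted p = 8.67e-11); its neighbour Ly6c1 is nearly identical, so reads may be split between them. Hp, haptoglobin, was at 1431, 969 and 1118 CPM in FI1 and absent from FI3, at least 7263-fold lower (adjusted p = 1.5e-10).

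Other members went the same way. Vcan, a proteoglycan gene of monocytes, was at 36.5, 95.1 and 172 CPM in FI1 and absent from FI3 (adjusted p = 6.66e-05). Plac8 was at 956, 626 and 1330.1 CPM in FI1 and at 0, 13.3 and 9.54 CPM in FI3 (adjusted p = 0.00142), and Sepx1, a selenoprotein that reduces oxidised methionine, was at 176, 107 and 145 CPM in FI1 and at 6.92, 11.4 and 6.08 CPM in FI3 (adjusted p = 3.28e-07). Each of these was lower in all 3 FI3 libraries and kept its call without any single library. F5, coagulation factor V, was at 142, 185 and 299.9 CPM in FI1 and absent from FI3 (adjusted p = 0.0251), with an adjusted p of 0.0941, 0.109 and 0.108 without FI3_1085, FI3_1167 and FI3_1470x4. Chi3l3, a chitinase-like protein, was at 2344, 1387 and 2023 CPM in FI1 and at 0.231, 0 and 22.1 CPM in FI3 (adjusted p = 0.0382), with an adjusted p of 0.0575, 0.0619, 0.161 and 0.156 without FI1_1167, FI1_1392, FI3_1085 and FI3_1167. By contrast Ccr2, the chemokine receptor that brings monocytes into tissue, was at 1196, 688 and 640.4 CPM in FI1 and at 1259, 1199 and 586 CPM in FI3 and was not called.

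Across the other control populations, Ly6c2 averaged 647 ± 218 CPM in CM and 1788 ± 736 CPM in FI1, had no counts in NCM and FI3, and was at 0.0252 ± 0.0437 CPM in FH1 and 2.66 ± 2.51 CPM in FH2. Of 18 non-classical monocyte genes 1 rose and 2 fell, and their summed level was 1368 to 2060.0 CPM in FI1 and 2055 to 2294 CPM in FI3, against 12447 to 15827 CPM in NCM.

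Neutrophil granule transcripts moved with the monocyte genes. Of 8 genes of specific granules 5 fell in FI3 and 0 rose, where 1.00% of tested genes fell. Their summed level was 11627, 11294 and 15456 CPM in FI1 and 2555, 3005 and 2240.3 CPM in FI3, against 1039 to 1463 CPM in control CM. In FI3 6 of the 8 genes had no counts and Camp was near 0. Nearly the whole FI3 sum thus came from the 1 remaining gene, which was above FI1 in all 3 FI3 libraries. Ngp, a granule protein, was at 4897, 4140.2 and 5659.6 CPM in FI1 and absent from FI3, at least 30339-fold lower (adjusted p = 0.00947; 0.0554 without FI3_1167 and 0.0528 without FI3_1470x4). Camp, cathelicidin, was at 1968, 1614 and 2954 CPM in FI1 and at 0, 0.143 and 0 CPM in FI3 (adjusted p = 0.0102; 0.0618, 0.0768 and 0.071 without FI3_1085, FI3_1167 and FI3_1470x4). Ltf, lactoferrin, was at 1735, 1738 and 2993 CPM in FI1 and absent from FI3 (adjusted p = 0.0226; 0.0857 to 0.0993 without any 1 FI3 library). Cd177, a neutrophil surface protein, was at 714, 758 and 614 CPM in FI1 and absent from FI3 (adjusted p = 0.0218; 0.0864 to 0.102 without any 1 FI3 library). Lcn2, a protein that binds siderophores, was at 743, 751 and 1146 CPM in FI1 and absent from FI3 (adjusted p = 0.0382; 0.0511 to 0.151 without any 1 of the 6 libraries). The separation of levels was complete in these genes, while their calls depended on the FI3 libraries: without FI3_1167 or FI3_1470x4, 0 of the 8 passed, and without FI3_1085 1 did.

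Of 16 tested genes of mature neutrophils 4 fell, where 1.00% of tested genes fell. The summed level was 12943, 9221 and 13912 CPM in FI1 and 465, 419 and 299.7 CPM in FI3. S100a8 and S100a9 encode the subunits of calprotectin. S100a8 was at 4777, 3361 and 5356 CPM in FI1 and at 0.231, 0 and 8.85 CPM in FI3 (adjusted p = 0.00581), and S100a9 was at 5121, 3579 and 5422 CPM in FI1 and at 0, 0 and 0.138 CPM in FI3 (adjusted p = 0.00373). The collagenase gene Mmp8, counted here with the monocyte genes, was at 379.6, 294 and 461 CPM in FI1 and absent from FI3 (adjusted p = 0.00371). Retnlg had an adjusted p of 0.0333 and Slpi, a protease inhibitor, of 0.0224. Retnlg lost its call without FI1_1167 (0.0544), FI1_1392 (0.0584) or any FI3 library (0.133 to 0.137), and Slpi without FI3_1085 (0.107) or FI3_1470x4 (0.108).

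Azurophil granule genes, which are transcribed in early precursors, varied among the FI1 libraries. Their summed level was 4636, 2115 and 148 CPM in FI1_1167, FI1_1194 and FI1_1392, and 0 in FI3. Of 5 genes 1 fell, Prtn3, a serine protease, at 498, 236 and 75.7 CPM in FI1 (adjusted p = 0.0331; 0.0595 without FI1_1167 and 0.115 to 0.134 without any 1 FI3 library). Elane, neutrophil elastase, was at 1243, 573 and 44.5 CPM and Mpo, myeloperoxidase, at 2585, 1058 and 0 CPM in FI1, and neither was called. Monocyte progenitors also express several of these genes, and what neutrophil or precursor cells contributed to the FI1 levels of monocyte genes was not tested.

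**Figure D4:**
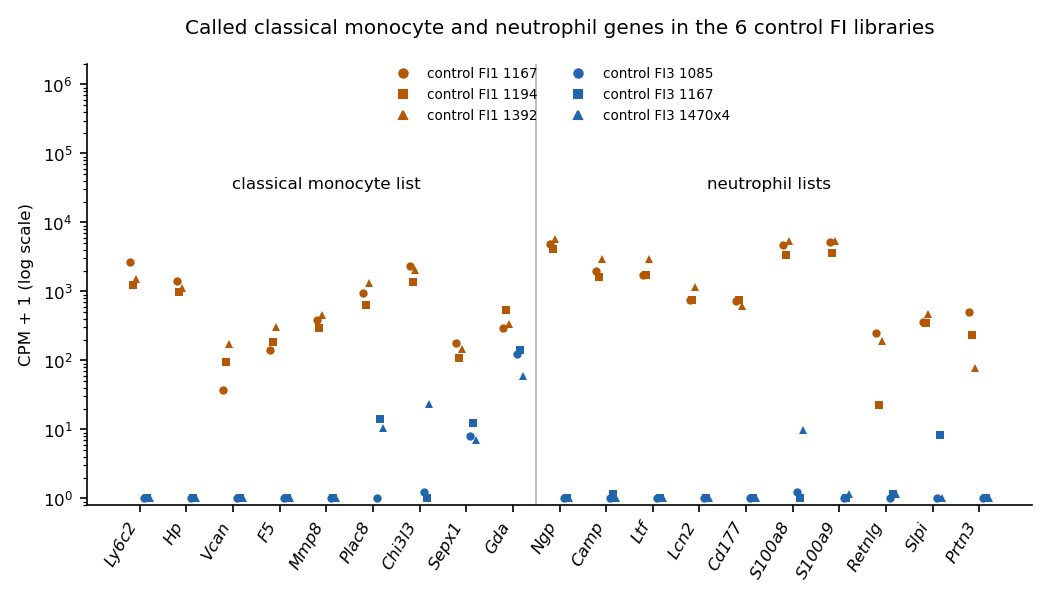
CPM + 1 (y axis, log scale) of called genes of the classical monocyte list (left of the line) and of the neutrophil lists (right of it) in each control library, FI1 in orange and FI3 in blue, 1 marker shape per library. Ly6c2 lies between 1231.3 and 2623 CPM in FI1 and at 0 in the 3 FI3 libraries.

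The following 6 genes were chosen one by one after their values were seen to be lower in FI3, and say nothing of other genes of the same function. Gsr, glutathione reductase, was at 1388, 1385 and 1389 CPM in FI1 and at 19.1, 26.5 and 65.1 CPM in FI3, a log2 difference of -5.23 ± 0.54 (adjusted p = 1.02e-07). Prdx5, a peroxiredoxin, was at 669, 488 and 1117 CPM in FI1 and at 72.2, 115 and 142 CPM in FI3, and Mgst1, a microsomal glutathione transferase, was at 437, 429 and 820.5 CPM in FI1 and at 0, 17.1 and 22.4 CPM in FI3 (adjusted p = 1.02e-07 and 8.9e-06). Cybb, the membrane subunit of the phagocyte NADPH oxidase, was at 2381, 1843 and 2651 CPM in FI1 and at 679, 834 and 1018 CPM in FI3, a log2 difference of -1.44 ± 0.21 (adjusted p = 5.86e-05). The cytosolic oxidase subunit Ncf4 had a log2 difference of -1.32 (adjusted p = 0.00625), and Taldo1, an enzyme of the pentose phosphate pathway, one of -1.43 (adjusted p = 0.000123). Ncf4 lost its call without FI3_1085 (adjusted p = 0.0659), and the other 5 genes named here kept theirs without any single library. Neutrophils and monocytes express many of these genes, and the neutrophil lists moved in the same direction in the same libraries; their part in these values was not tested.

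Single genes of other lists, and some on none, also differed. Cebpb, a transcription factor of the myeloid lineage, was at 3139, 3835 and 3154 CPM in FI1 and at 1423, 1110.3 and 1479 CPM in FI3, a log2 difference of -1.34 ± 0.19 (adjusted p = 2.75e-05). The lysozyme gene Lyz2 was at 25825, 26581 and 34185 CPM in FI1 and at 12179, 14441 and 15852 CPM in FI3 (log2 difference -1.03 ± 0.14, adjusted p = 2.79e-05), while its near-identical neighbour Lyz1 was at 34.9, 50.1 and 151 CPM in FI1 and at 1526, 1467 and 2374 CPM in FI3 (log2 difference 4.51 ± 0.67, adjusted p = 5.86e-05). Reads of these copies may be split between them, so their opposite directions hold for the counts as assigned. Tyrobp, the signalling adaptor DAP12, had a log2 difference of -1.13 (adjusted p = 0.000252). Gngt2, a G protein gamma subunit, was at 107, 94.5 and 195 CPM in FI1 and at 3.69, 18.8 and 1.66 CPM in FI3, and Msr1, a scavenger receptor, was at 198, 380.5 and 354 CPM in FI1 and at 39.5, 22.5 and 70.6 CPM in FI3 (adjusted p = 8.9e-06 and 2.83e-05).

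Few resident macrophage genes were called. Of 28 tested 1 rose, Cd9, and 1 fell, Msr1, while 7 were at an unadjusted p under 0.05 and DESeq2 called 4. In 8 of the 28 all FI3 libraries were above all FI1 libraries, against 7.90% of all tested genes, the median log2 difference was 1.01, and 3 rose without FI1_1194; the summed level was 4610.4, 12200 and 8348 CPM in FI1 and 11383, 13590 and 14732 CPM in FI3, against 45561 to 49256 CPM in FH1. Csf1r, the receptor for macrophage colony-stimulating factor, was at 855, 1059.7 and 1359.8 CPM in FI1 and at 1605, 1210.0 and 1339.5 CPM in FI3 (adjusted p = 0.45). Among 25 interferon-stimulated genes 2 fell, among 14 complement genes 1 rose, and among 17 interferon-gamma induced genes 2 rose and 1 fell. EdgeR called 0 of 25 cell cycle genes, 0 of 18 glycolysis genes, 0 of 15 Bcl2 family genes and 0 of 16 death receptor and apoptosis genes. At an unadjusted p under 0.05 these lists held 2, 5, 3 and 2 genes, and DESeq2 called 2, 3, 2 and 1.

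Markers of other cells were not evenly spread. Fibroblast genes summed to 768, 9676 and 10295 CPM in FI1_1167, FI1_1194 and FI1_1392 and to 175, 242 and 307 CPM in FI3, and 2 of 17 tested fell. Prg4, lubricin of the synovial lining, was at 5.23, 8205 and 8558 CPM in FI1 (adjusted p = 0.0182; 0.0883 to 0.108 without any 1 FI3 library), and Has1, a hyaluronan synthase, was at 34.7, 235 and 271 CPM in FI1 and absent from FI3 (adjusted p = 0.0108; 0.0563 and 0.0553 without FI3_1167 and FI3_1470x4). With FI1_1194 and FI1_1392 both left out, which leaves FI1 with 1 library assumed to vary like the other groups, 105 genes were called, among them 6 of the 18 MHC class II genes, 7 of the 20 classical monocyte genes, 2 of the 8 specific granule genes, 2 of the 16 mature neutrophil genes, 0 of the 5 azurophil granule genes and 1 of the 15 NF-kB feedback genes. Eosinophil genes summed to 421, 0 and 13.2 CPM in FI1 and to 132, 1457 and 119 CPM in FI3, and erythroid genes to 239, 412 and 892 CPM in FI1 and to 0.231, 0.143 and 64.3 CPM in FI3. Their part in the results was not tested.

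FI3_1085 and FI3_1470x4 carried Y-linked transcripts, which no FI1 library did. With a term for sex-linked transcripts in the fit, 176 genes were called, and 8 MHC class II, 9 classical monocyte, 5 specific granule and 3 NF-kB feedback genes were among them. With those 2 FI3 libraries left out, 101 genes were called, including 8 MHC class II and 4 classical monocyte genes but 0 of the specific granule and 0 of the NF-kB feedback genes. Between FI1_1167 and FI3_1167, both of which carried Xist, Cd74 was at 407 and 52808 CPM and Ly6c2 at 2623 and 0 CPM; with 1 library each this has no replicate check.

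The same populations of HUPO mice were compared in the same fit. FI3 differed from FI1 there for 157 genes (1.26%), and 59 genes were called in the same direction in both arms, which is 25.3% of the control calls and 38.9% of the HUPO calls when the 2 genes called in opposite directions are counted with them. Of the 241 control calls 202 had the same sign in the HUPO arm, against 55.6% of all tested genes. The difference between the arms itself was called for 40 genes (0.321%), of which 27 were higher in the HUPO contrast and 13 lower. Of the 241 control calls 29 were among these 40. All 6 HUPO libraries of FI1 and FI3 carried Xist and no Y-linked transcripts, while control FI3_1085 and FI3_1470x4 carried Y-linked ones. The arms of this comparison thus also differed in sex-linked transcripts. With a term for these transcripts in the fit, the difference was called for 38 genes.

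MHC class II and monocyte genes were among those whose contrast differed. Cd74 averaged 4232 ± 1319 CPM in HUPO FI1 and 24334 ± 1672 CPM in HUPO FI3 (SD, n = 3), so its log2 difference was smaller than in controls by 3.35 (adjusted p = 0.00156 for the difference). Ly6c2 averaged 3175 ± 543 CPM in HUPO FI1 and 61.9 ± 10.8 CPM in HUPO FI3 (adjusted p = 1.39e-05 for the difference), and Hp averaged 2116 ± 218 and 121 ± 52.0 CPM (adjusted p = 7.51e-06), where both were absent from control FI3. Icam1 averaged 99.4 ± 71.1 CPM in HUPO FI1 and 169.7 ± 58.4 CPM in HUPO FI3, and its contrast was smaller than in controls by 3.80 on the log2 scale (adjusted p = 0.00917). Cebpb averaged 2975 ± 552 and 2864 ± 226 CPM in HUPO FI1 and FI3 (adjusted p = 0.0141), and Msr1 242 ± 69.5 and 578 ± 114 CPM (adjusted p = 6.08e-05). For Msr1 the order of the means was the opposite of that in controls.

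**Figure D5:**
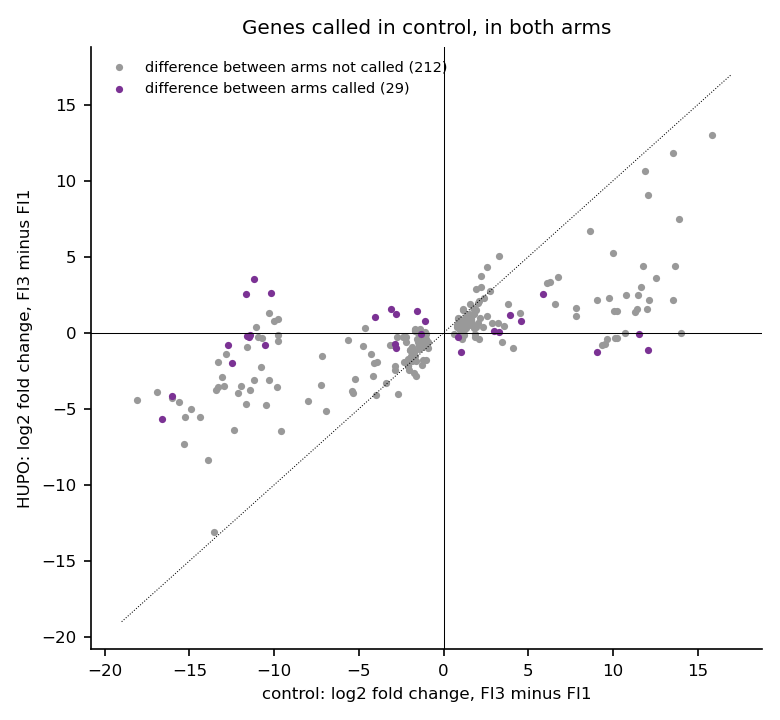
Fitted log2 differences, FI3 minus FI1, of the 241 genes called in control mice, in control mice (x axis) and in HUPO mice (y axis), with a dotted line where both are equal. In the plot 29 genes whose difference between the arms was called are purple and the other 212 are grey; values far out on the x axis belong to genes with no counts in 1 control group and depend on the prior count of the fit.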

How the data were processed

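The deposited files hold whole-number read counts per gene for 23337 mouse gene symbols in each of 39 libraries, made by the authors with tools that the submitters' processing notes list as FastQC, STAR, HTSeq and Cufflinks on the mm10 build; versions, settings and strandedness are not given in the sources used here, so antisense and near-identical genes cannot be told apart. Per the labels' protocols, RNA of more than 400 sorted cells was amplified with SMART-Seq v4 and tagged with Nextera XT, which has no molecular identifiers, so intervals and count floors cover counting error only. Counts were fitted in edgeR 4.0.16 (R 4.3.3, with limma 3.58.1) with 13 group means over all 39 libraries, filterByExpr, TMM totals, trended dispersion and robust quasi-likelihood tests; p-values were Benjamini-Hochberg adjusted over all 12450 tested genes, and an adjusted p under 0.05 was called. The 13 groups share 1 estimate of the spread over 26 residual degrees of freedom. The fit was tested on simulated data.

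The 46 gene lists (585 genes, 6 list entries unmatched) and the members were chosen with earlier results of these data known. Named genes were Cflar, Itgax, Emr1, Ly6c2 and Cd74, in each direction up to 12 called genes of the largest fold at 32 CPM or more in every library of the higher group and without overlap, and up to 4 genes per list with the smallest p. H2-Aa, H2-DMa, H2-DMb2 as a list member, Ctss, H2-Ob, Ccl22, Zbtb46, Retnla, Csf1r, Ccr2, Vcan, Plac8, Nfkbiz, Elane, Mpo, Lyz1, Lyz2, Tyrobp and the oxidant genes were chosen after their values were seen. Alternatives were RLE size factors, no filter, fewer groups in the fit, tagwise dispersion, a term for sex-linked transcripts, DESeq2 1.42.0, a title-number block, leaving out libraries, and, added after the data were seen, leaving out both FI3 libraries with Y-linked transcripts and keeping only FI1_1167 and FI3_1167. Promoters and their coordinates came from RefSeq (GRCm38.p6), gene coordinates from the GENCODE annotation of GRCm38. Some genes that the naming rule selects are not reported here.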

Additional observations from a re-analysis of the deposited data

Results flagged for a closer look

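For 15 of the genes examined one by one, the difference between FI3 and FI1 was itself different between HUPO and control mice (edgeR's quasi-likelihood test of the interaction, adjusted over all tested genes). Values are HUPO minus control on the log2 scale, and those of genes with no counts in a control group depend on the prior count of the fit. The arms also differed in sex-linked transcripts, as given above.

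The monocyte genes Hp, Ly6c2 and Vcan were absent from control FI3 and present in HUPO FI3. The value was 11.90 for Hp (adjusted p = 7.51e-06), 10.96 for Ly6c2 (adjusted p = 1.39e-05) and 10.54 for Vcan (adjusted p = 0.012). This did not hold for every monocyte gene absent from control FI3, since F5 had no counts in HUPO FI3 either. Tlr8, an endosomal RNA sensor, had 9.73 (adjusted p = 0.0327). Gngt2 had 5.05 (adjusted p = 9.74e-05) and Msr1 had 4.07 (adjusted p = 6.08e-05), and both were lower in FI3 in controls and higher in FI3 by mean level in HUPO mice. Smaller positive values were found for Prdx6 with 2.09 (adjusted p = 0.021), Clec7a, the receptor Dectin-1, with 1.82 (adjusted p = 0.0184), Prdx5 with 1.79 (adjusted p = 0.0213) and Cebpb with 1.28 (adjusted p = 0.0141). Of these, Clec7a too was lower in FI3 in controls and higher in FI3 by mean level in HUPO mice.

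Of the 8 MHC class II genes called in controls 3 passed this test, with negative values, so that FI3 and FI1 were less far apart in HUPO mice; H2-Eb1, H2-Ab1, H2-Aa, Ciita and H2-DMb2 had negative values that did not pass (adjusted p from 0.0569 to 0.399). The value was -3.35 for Cd74 (adjusted p = 0.00156), -2.82 for H2-DMa (adjusted p = 0.00156) and -2.71 for H2-DMb1 (adjusted p = 0.00913). Icam1, which is on another list, had -3.80 (adjusted p = 0.00917). The pseudogene Hmga2-ps1 had -13.16 (adjusted p = 0.0244), and was higher in FI3 in controls but lower in FI3 by mean level in HUPO mice.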

How the results depend on the processing

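Against 241 control calls (116 higher, 125 lower), 157 HUPO calls and 40 calls of the difference, the size of the lists depended on the processing. A fit to the 6 control FI libraries alone gave 77 calls (40 higher, 37 lower; 8845 genes tested). A fit to the 12 control ankle libraries gave 204 higher and 85 lower, so that 70.6% of calls were higher, against 48.1%. With a term for sex-linked transcripts 73 genes were higher, and the median of all genes was -0.11. Without FI1_1194 and FI1_1392 there were 105 calls (46 higher, 59 lower) and 24 of the difference, without FI3_1085 and FI3_1470x4 101 (46 higher, 55 lower), and with FI1_1167 and FI3_1167 only 98 (45 higher, 53 lower). DESeq2 gave 1637 calls (812 higher, 825 lower), 1139 in HUPO mice and 1034 of the difference, and shared 239 of the 241. RLE size factors, no count filter and tagwise dispersion gave 245, 219 and 236 calls. With any 1 of the 12 control and HUPO libraries of FI1 and FI3 left out there were 161 to 228 control calls, 68 to 124 higher and 84 to 123 lower, 101 to 128 HUPO calls without a HUPO library and 154 to 168 without a control one, and 26 to 61 of the difference; the 61 came without FI1_1167. Of 83 called genes examined singly, 45 kept their call without any 1 control library. The causes were not tested.

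Whether the title numbers pair the libraries could not be decided. Over 7 same-number pairs of control ankle libraries the deviations from group means correlated at -0.011 to 0.0251 (median 0.0177). Over 47 different-number pairs they correlated at -0.0354 to 0.0262 (median -0.000415). Each deviation was taken from a mean of only 3 libraries, so values this small do not exclude pairing. Libraries with the same title number always carried the same kind of sex-linked transcripts, Xist or Y-linked. Whether they came from the same animal was not tested. With the number as a block there were 120 control calls (49 higher, 71 lower), 153 in HUPO mice and 21 of the difference, and 2 of the NF-kB feedback genes rose.

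No gene of the 241 changed sign without 1 library; 2 did without FI1_1194 and FI1_1392, 1 without FI3_1085 and FI3_1470x4 and 4 with FI1_1167 and FI3_1167 only. Among the 93 genes examined singly there were 3 changes of sign. Cflar, not called in any, had a log2 difference of -0.63 without FI3_1085, with a range of -0.63 to 1.25 over the control libraries left out in turn, and of -0.31 without FI3_1085 and FI3_1470x4. Clec7a had 0.16 with FI1_1167 and FI3_1167 only.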
